A study of Mus musculus with 8 samples.

Results

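The Ly49 receptors are a family of closely related natural killer (NK) cell receptors encoded by the *Klra* genes of mouse chromosome 6. Of the 48321 gene symbols with counts, 10 were taken as members by their symbol: *Klra1*, *Klra3*, *Klra4*, *Klra5*, *Klra6*, *Klra7*, *Klra8*, *Klra9*, *Klra10* and the pseudogene *Klra13-ps*. All 10 passed the filter on low counts and were among the 12595 genes tested. The other 4 symbols of the same series, *Klra2*, *Klra11-ps*, *Klra14-ps* and *Klra17*, are described after them.

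Ly49 receptors are C-type lectin-like proteins that sit as dimers on NK cells and bind MHC class I molecules or related ligands. Inhibitory members carry a tyrosine-based inhibitory motif in their cytoplasmic tail, which recruits the phosphatase SHP-1 when the receptor is engaged. Activating members lack that motif and signal through the adaptor DAP12. Each receptor is made by a subset of NK cells, so that a population of NK cells carries many combinations of them.

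RNA of NK cells sorted freshly from lung and spleen as CD45+ TCRb- NK1.1+ cells was sequenced in 8 libraries. The 4 groups were lung *Wt*, lung KO, spleen *Wt* and spleen KO, each with 2 libraries, and all mice had the C57/Bl6 background, with no treatment named. KO stands for *Ccl5*ΔPE/ΔPE, a germline deletion of the proximal enhancer of the chemokine gene *Ccl5* that is present in every cell of the mouse, made with a pair of guide RNAs and not limited to NK cells. The labels give no age or sex for a library, and the study's sources describe its mice as a whole, as of both sexes and with age ranges that differ between these sources. Nothing says that both libraries of a group had their own mice, so p-values measure the spread between libraries, which may be technical.

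Between 3132963 and 26482366 reads were counted on genes per library, and 21125 to 173393 of them, 0.544% to 0.731%, fell on the 10 Ly49 genes. Levels are given as CPM, a count divided by the library's own total after TMM adjustment, and 3 reads, the floor used here, came to between 0.115 and 0.979 CPM. *Ccl5*, the gene beside the deletion, was lower in KO by 2.61 on the log2 scale in lung and by 2.67 in spleen. The defining NK-cell marker *Ncr1* was counted at 2801 to 3456 CPM in every library. T-cell markers (8 genes) summed to 48.5 to 178 CPM (*Cd8a* 2.25 CPM or less), and myeloid markers (7 genes) to 5.25 to 30.5 CPM. Of the 4 T-cell markers tested, *Trac* was called lower in lung KO (log2 difference -1.18) and higher in spleen KO (0.44). *Cd3e* was called lower in spleen KO, with means of 32.2 CPM in spleen *Wt* and 9.33 CPM in spleen KO. The other tested T-cell markers were not called between KO and *Wt* in either organ. B-cell markers (6 genes) summed to 296 to 308 CPM in lung *Wt*, 248 to 253 CPM in lung KO, 517 to 531 CPM in spleen *Wt* and 617 to 632 CPM for spleen KO, and of them *Ighm* had log2 differences of KO minus *Wt* of -0.28 in lung and 0.27 in spleen. Markers of lung epithelium and endothelium (7 genes) summed to 308 to 317 CPM in lung *Wt*, 413 to 448 CPM in lung KO and 65.2 to 75.4 CPM in spleen. The spleen sums were almost wholly *Pecam1* (64.9 to 74.9 CPM), and *Sftpc* and *Scgb1a1* were at 0 CPM in every spleen library. Markers of group 1 innate lymphoid and tissue-resident NK cells (8 genes) summed to 126 to 130 CPM in lung *Wt*, 79.2 to 79.4 CPM in lung KO and 155 to 194 CPM in spleen. The part of these other cells in the results was not tested.

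The 10 genes lie within 487.9 kb of the minus strand at chr6:129898996-130386874 (GRCm38, GENCODE M21), and none overlaps another annotated gene. From their far end to their near end in the direction of transcription of the cluster, *Klra1* (ENSMUSG00000079853) lies at chr6:130363917-130386874, *Klra3* (ENSMUSG00000067591) at chr6:130323289-130337574, *Klra13-ps* (ENSMUSG00000030178) at chr6:130290878-130306428 and *Klra10* (ENSMUSG00000072718) at chr6:130269194-130281928. They are followed by *Klra7* (ENSMUSG00000067599) at chr6:130218605-130233322, *Klra9* (ENSMUSG00000033024) at chr6:130178675-130193112 and *Klra8* (ENSMUSG00000089727) at chr6:130115226-130129898. *Klra4* (ENSMUSG00000079852) lies at chr6:130043731-130067271, *Klra6* (ENSMUSG00000061769) at chr6:130013033-130026954 and *Klra5* (ENSMUSG00000030173) at chr6:129898996-129917650. *Klra13-ps* is annotated as a transcribed unprocessed pseudogene and the other 9 as protein-coding.

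The inhibitory and activating members can be told apart at the start of their coding sequence, which is shown because it separates the receptors named as inhibitory and activating below. The first 36 coding bases of the 9 coding members follow, from the start codon, on the coding (minus) strand of the annotated transcripts. Capitals mark the eighth codon, where the tyrosine of the inhibitory motif is encoded.
Klra1: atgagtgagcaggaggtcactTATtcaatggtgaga
Klra3: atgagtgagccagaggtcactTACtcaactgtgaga
Klra5: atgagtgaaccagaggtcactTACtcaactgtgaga
Klra6: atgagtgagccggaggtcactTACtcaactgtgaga
Klra7: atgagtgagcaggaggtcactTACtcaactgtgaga
Klra9: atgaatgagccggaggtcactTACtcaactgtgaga
Klra10: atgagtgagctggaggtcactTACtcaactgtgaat
Klra4: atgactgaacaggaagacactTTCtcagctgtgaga
Klra8: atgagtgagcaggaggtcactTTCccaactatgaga
A tyrosine codon stood there in 7 members, and a phenylalanine codon in *Klra4* and *Klra8*, which encode the activating receptors Ly49D and Ly49H. Relative to *Klra3*, and counted from 1 at the first base of the start codon, both carry the substitution A23T.

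Beyond this codon the members are close copies of each other, which bears on how their reads could be counted. Over the 36 pairs of coding members, the identity of the coding sequences lay between 74.3% (*Klra7* with *Klra8*) and 96.9% (*Klra9* with *Klra10*). *Klra3* shared 96.2% of its coding sequence with *Klra10* and 95.9% with *Klra9*. The authors' reads were 50 bases long, and reads that aligned to several places were not counted. The following run of 50 coding bases, from coding base 282 to 331 of *Klra10*, is shown as an example, since it is found unchanged in *Klra3*, *Klra8*, *Klra9* and *Klra10* and a read of it cannot be given to 1 gene.
shared stretch: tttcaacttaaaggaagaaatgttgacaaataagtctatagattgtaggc
Of all 50-base positions in its annotated transcripts, 99.3% were found in no other annotated gene for *Klra5*, 97.4% for *Klra6*, 97.0% for *Klra1* and 95.3% for *Klra4*. The share was 87.7% for *Klra7*, 86.3% for *Klra13-ps* and 79.3% for *Klra3*. It was lowest for *Klra9* (68.5%), *Klra8* (66.9%) and *Klra10* (60.2%). *Klra10* shared 21.4% of its positions with *Klra9*, *Klra8* shared 20.4% with the pseudogene *Klra14-ps*, and *Klra13-ps* shared 13.7% with *Klra7*. Counts of these genes are therefore uncertain with regard to their copies.

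**Figure D1:**
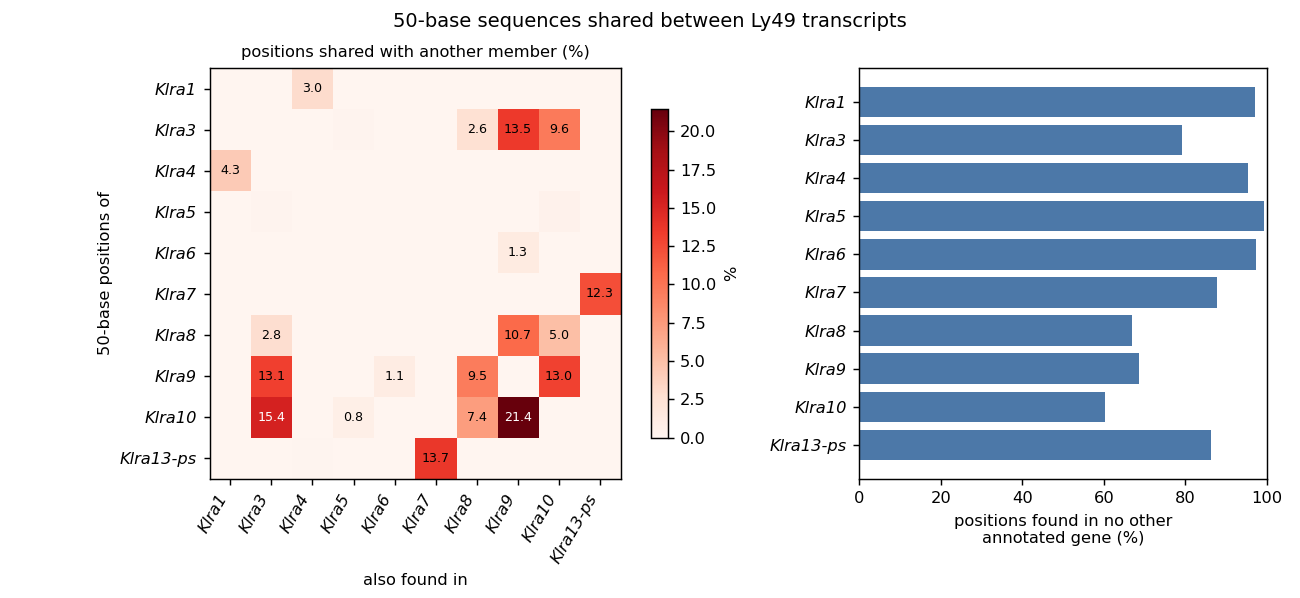
The left panel gives, for each Ly49 gene (rows), the percentage of 50-base positions of its transcripts that are also found in another member (columns), and the right panel the percentage found in no other annotated gene. The highest sharing, 21.4%, is that of *Klra10* with *Klra9*, and *Klra1*, *Klra4*, *Klra5* and *Klra6* share little.

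Levels of different members were compared as CPM per kb of exon, here in lung *Wt* cells (mean ± SD of 2 libraries). *Klra13-ps*, whose transcript is not annotated to make a receptor, stood highest at 1697 ± 28.4 CPM per kb. *Klra9*, which encodes the inhibitory receptor Ly49I, followed at 1262 ± 17.4 CPM per kb. *Klra4* at 1015 ± 67.4 and *Klra7* (Ly49G, inhibitory) at 1009 ± 37.7 CPM per kb did not differ beyond their spread. The activating *Klra8* was at 624 ± 31.5 CPM per kb, *Klra3* (Ly49C) at 286 ± 15.4 and *Klra1* (Ly49A) at 212 ± 7.07. The lowest levels were 43.0 ± 2.46 CPM per kb for *Klra10* (Ly49J), 34.0 ± 0.863 for *Klra6* (Ly49F) and 22.8 ± 0.301 for *Klra5* (Ly49E). Only the positions found in no other annotated gene can receive reads of their own, and per kb of these, a scale chosen after the data were seen, *Klra9* (1845) stood above *Klra13-ps* (1805) and *Klra7* (1155) above *Klra4* (1109). The order of the other 6 was the same on both scales.

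In lung, the question was whether Ly49 transcripts differ in NK cells of mice without the enhancer. Of the 10 members, 7 were lower in KO and none was higher. Members with the greatest difference were *Klra10*, *Klra13-ps*, *Klra9* and *Klra1*, while *Klra3*, *Klra5* and *Klra6* did not pass the test. The median log2 difference (KO minus *Wt*) was -0.29 over the members and 0.02 over all genes tested. These counts stand beside 55.6% of all genes called in lung, 29.2% higher and 26.4% lower, at an adjusted p (false discovery rate, FDR) under 0.05 by the quasi-likelihood test of edgeR.

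*Klra13-ps* was counted at 1788 and 1746 CPM in the lung *Wt* libraries and at 977 and 999.6 CPM in lung KO. Both KO libraries lay below both *Wt* libraries, and the log2 difference was -0.84 (SE 0.04, edgeR adjusted p = 5.92e-21). *Klra9* gave 1630 and 1599 CPM in *Wt* and 1126 and 1064 CPM in KO. Its groups did not overlap either, and the share of all genes separated in this way was not counted. The log2 difference was -0.56 (SE 0.04, edgeR adjusted p = 8.44e-15). *Klra1*, the receptor gene first described in the family, gave 383 and 366 CPM in *Wt* and 272.0 and 272.2 CPM in KO, the KO libraries lying nearly level below both others. The log2 difference was -0.47 (SE 0.05, edgeR adjusted p = 4.27e-11). *Klra10* had few reads, 296 and 131 in *Wt* and 89 and 125 in KO, which were 36.8 and 33.9 CPM and 18.2 and 17.01 CPM. Its level in KO was lower by 1.03 on the log2 scale (SE 0.20, edgeR adjusted p = 4.89e-05).

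The activating receptor genes and *Klra7* differed less in lung. *Klra4* stood at 1323 and 1205 CPM in *Wt* and at 1029 and 1025 CPM in KO, a log2 difference of -0.30 (SE 0.04, edgeR adjusted p = 2.28e-08). *Klra8*, whose receptor recognises a mouse cytomegalovirus protein, stood at 761 and 708 CPM in *Wt* and at 663 and 648 CPM in KO (log2 difference -0.17, SE 0.04, edgeR adjusted p = 0.00134). *Klra7* stood at 1310 and 1243 CPM in *Wt* and at 1042 and 1062 CPM in KO (log2 difference -0.28, SE 0.04, edgeR adjusted p = 3.09e-08). In all 3, both KO libraries were below both *Wt* libraries. *Klra6*, which did not pass the test, also showed no overlap, with KO above *Wt*, and the share of all genes separated was not counted. *Klra3* gave 367 and 340 CPM in *Wt* and 359 and 344 CPM in KO, and these ranges overlapped (log2 difference -0.02, 95% interval -0.11 to 0.07). *Klra5* (32.2 and 31.6 CPM in *Wt*, 32.5 and 29.9 CPM in KO) had an interval of the log2 difference of -0.27 to 0.18. For *Klra6* (38.7 and 37.3 CPM in *Wt*, 40.3 and 39.2 CPM in KO) it was -0.14 to 0.25.

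Exons of the members hold 38.3% to 42.7% G and C, against a median of 48.8% over the tested genes with a known value. When the trend of each library with GC content was removed, the lung median of the members was -0.06, 4 members were called lower (*Klra1*, *Klra9*, *Klra10* and *Klra13-ps*) and 2 higher (*Klra3*, log2 difference 0.28, and *Klra6*, 0.27), while *Klra4*, *Klra7* and *Klra8* lost their calls (edgeR adjusted p of 0.278, 0.0607 and 0.294). With an assumed coefficient of variation of 0.2 between libraries, in place of the estimated 2.5%, the 2 members called were *Klra10* and *Klra13-ps*. The call of *Klra10* was lost in DESeq2 (adjusted p = 0.0629), and that of *Klra8* without lung *Wt* replicate 1 (log2 difference -0.12, edgeR adjusted p = 0.0542) and with scaling by library totals (adjusted p = 0.12).

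**Figure D2:**
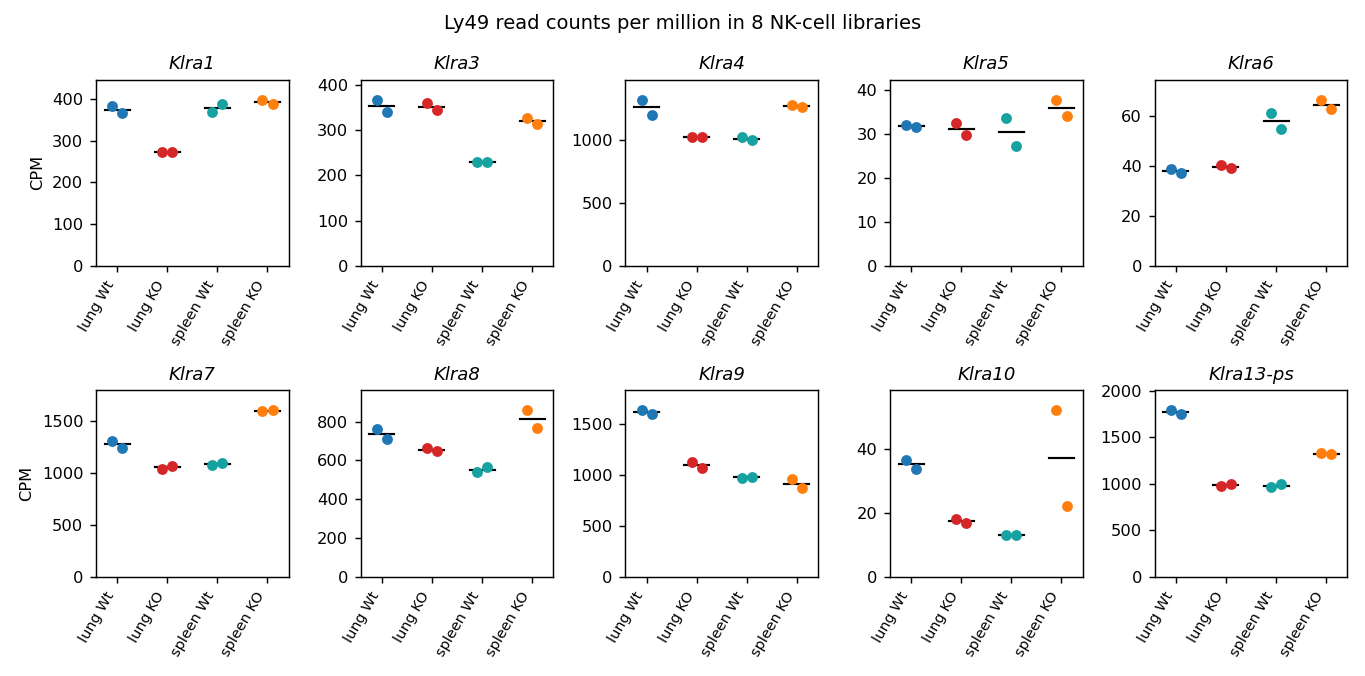
CPM of each Ly49 gene (1 panel each, y axes from 0 with their own scales) in lung *Wt*, lung KO, spleen *Wt* and spleen KO, with 1 point per library and the group mean as a line. *Klra4*, *Klra7*, *Klra8* and *Klra13-ps* are higher in lung *Wt* and spleen KO than in the other groups, and the spleen KO libraries of *Klra10* lie at 52.2 and 22.2 CPM.

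In spleen, the same comparison gave mostly the opposite direction. Of the 10 members, 7 were higher in KO (*Klra3*, *Klra4*, *Klra5*, *Klra7*, *Klra8*, *Klra10* and *Klra13-ps*) and *Klra9* alone was lower, while *Klra1* and *Klra6* did not pass the test. The median log2 difference (KO minus *Wt*) was 0.38 over the members and 0.00 over all genes tested, of which 57.1% were called in spleen, 28.2% higher and 28.9% lower. *Klra7* had the smallest p of the family, with 1076 and 1093 CPM in *Wt* and 1599 and 1601 CPM in KO. Its groups were far apart against the spread within them, and the log2 difference was 0.56 (SE 0.04, edgeR adjusted p = 1.16e-15).

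Among the activating receptors in spleen, *Klra8* stood at 538 and 567 CPM in *Wt* and at 859 and 766 CPM in KO (log2 difference 0.53, SE 0.04, edgeR adjusted p = 1.32e-12). *Klra4* stood at 1024 and 1002 CPM in *Wt* and at 1283 and 1264 CPM in KO (log2 difference 0.33, SE 0.04, edgeR adjusted p = 3.72e-09). For both genes, the KO libraries were above the *Wt* libraries without overlap. *Klra1* and *Klra6*, which did not pass the test, were separated in the same way, and the share over all genes was not counted. *Klra13-ps* gave 959 and 997 CPM in *Wt* and 1324 and 1321 CPM in KO, a log2 difference of 0.43 (SE 0.04, edgeR adjusted p = 1.18e-12). *Klra3* gave 231 and 230.2 CPM in *Wt* and 327 and 315 CPM in KO, a log2 difference of 0.47 (SE 0.05, edgeR adjusted p = 9.78e-11). *Klra9*, which fell, gave 972 and 973.5 CPM in *Wt* and 954 and 867 CPM in KO, a log2 difference of -0.11 (SE 0.04, edgeR adjusted p = 0.019). *Klra9* and *Klra3* thus had log2 differences of opposite sign here although 95.9% of their coding sequence is the same. The fall of *Klra9* was small, and its call was lost in DESeq2 (adjusted p = 0.139).

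*Klra10* showed the widest spread between libraries of a group. The spleen *Wt* libraries gave 13.2 and 13.1 CPM, and those of spleen KO 52.2 and 22.2 CPM (160 and 579 reads). The log2 difference was 1.02 (SE 0.21, edgeR adjusted p = 6.32e-05). It was 0.76 without spleen KO replicate 1 and 1.99 without spleen KO replicate 2. Either fit leaves 1 spleen KO library, so its p-value cannot see the spread between the 2 and does not bear on the call. *Klra5* was at 33.7 and 27.2 CPM in *Wt* and at 37.9 and 34.1 CPM in KO (log2 difference 0.24, SE 0.10, edgeR adjusted p = 0.0375). *Klra1* had a log2 difference of 0.05 with an interval of -0.04 to 0.13, and *Klra6* (61.4 and 55.0 CPM in *Wt*, 66.6 and 62.7 CPM in KO) of 0.15 (SE 0.07, edgeR adjusted p = 0.0826).

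With the GC trend removed, the spleen median was 0.16, with 6 members called higher and 2 lower (*Klra9*, -0.35, and *Klra1*, -0.20, whose sign turned), and *Klra5* was not called (edgeR adjusted p = 0.544). The assumed coefficient of variation of 0.2 left *Klra10* as the 1 member called. For this gene the setting was not strict, since its spleen KO libraries had a coefficient of variation of 57.1%. DESeq2 lost *Klra5* (adjusted p = 0.271) and *Klra9* (0.139), and library totals lost *Klra5* (0.138). Leaving out 1 library ended the call of *Klra5* without spleen *Wt* replicate 2, spleen KO replicate 1 or spleen KO replicate 2 (edgeR adjusted p of 0.881, 0.0743 and 0.068) and of *Klra9* without spleen *Wt* replicate 2 or spleen KO replicate 2 (0.0718 and 0.695). Without spleen *Wt* replicate 1, *Klra6* was called as well (log2 difference 0.20, edgeR adjusted p = 0.0439).

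**Figure D3:**
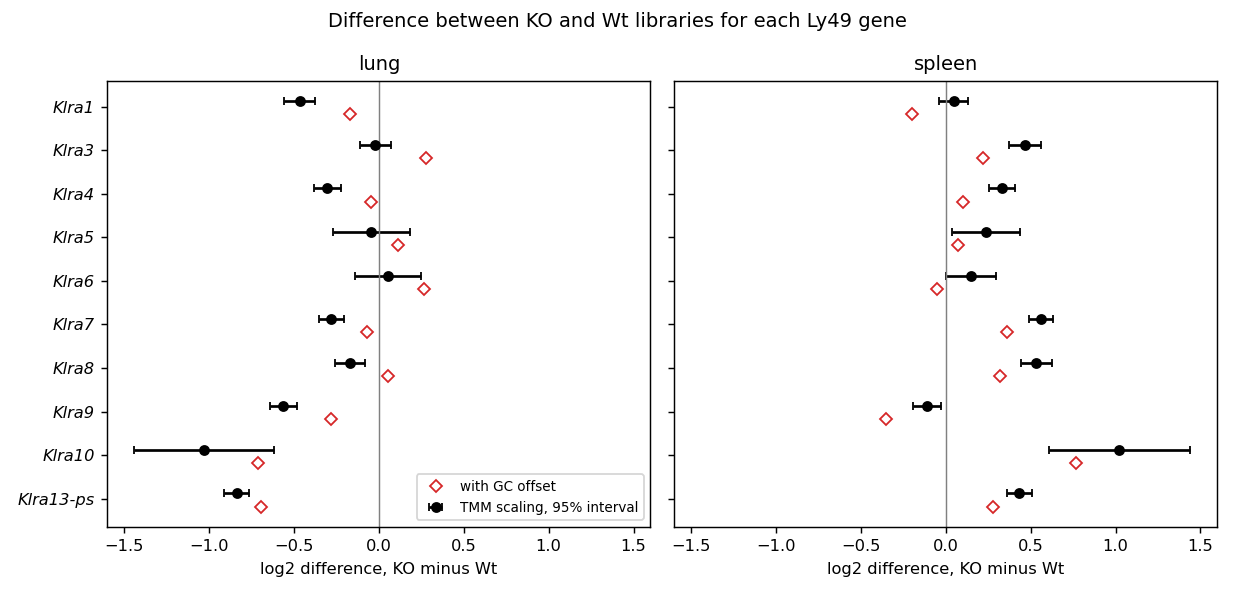
Log2 difference of KO minus *Wt* for each Ly49 gene in lung (left) and spleen (right), as black points with their 95% intervals from edgeR, and as open red diamonds after removal of the trend with GC content. The diamonds lie to the right of the points in lung and to the left in spleen, so that removing the trend makes most of the lung falls and of the spleen rises smaller.

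The difference between the organs was tested directly, as the KO effect in lung minus the KO effect in spleen. It was called for 8 of the 10 members, all 8 below 0, beside 61.6% of all genes tested (32.5% above 0 and 29.0% below 0). The median difference of effects was -0.57 on the log2 scale over the members and 0.03 over all genes, and that of the members was -0.06 with the GC trend removed. It was -2.05 for *Klra10* (SE 0.29, edgeR adjusted p = 1.19e-07), -1.27 for *Klra13-ps* (SE 0.05, 3.16e-22) and -0.84 for *Klra7* (SE 0.05, 6.92e-17). The activating receptors gave -0.70 for *Klra8* and -0.63 for *Klra4*. *Klra1* (-0.51), *Klra3* (-0.49) and *Klra9* (-0.45) had smaller differences of effects, all with an edgeR adjusted p below that of *Klra10*. *Klra5* (95% interval -0.58 to 0.02) and *Klra6* (-0.34 to 0.15) were not called. Within the GC-corrected fit, 5 members stayed called below 0 (*Klra4*, *Klra7*, *Klra8*, *Klra10* and *Klra13-ps*, from -0.15 to -1.48), *Klra6* was called above 0 (0.32), and *Klra1*, *Klra3* and *Klra9* turned to values of 0.03, 0.06 and 0.07 that were not called. The assumed coefficient of variation of 0.2 left *Klra10* and *Klra13-ps* as the 2 called, though it is below the 57.1% found between the spleen KO libraries of *Klra10*. For *Klra10* the difference was -1.78 without spleen KO replicate 1 and -3.03 without spleen KO replicate 2. *Klra5* was called without spleen *Wt* replicate 1 (-0.39, edgeR adjusted p = 0.0314).

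Between lung and spleen NK cells of *Wt* mice, most Ly49 transcripts were higher in lung. Of the 10 members, 7 were higher and *Klra6* was lower in lung, beside 57.0% of all genes tested (27.7% higher and 29.3% lower), and the median log2 difference (lung minus spleen) was 0.37 over the members and -0.01 over all genes. *Klra10* differed most, with 36.8 and 33.9 CPM in lung and 13.2 and 13.1 CPM in spleen (log2 difference 1.45, SE 0.22, edgeR adjusted p = 4.77e-07). *Klra13-ps* was higher in lung by a log2 difference of 0.85 (edgeR adjusted p = 1.26e-21), *Klra9* by 0.73 (3.25e-18) and *Klra3* by 0.63 (5.69e-14). *Klra8* (0.41), *Klra4* (0.32) and *Klra7* (0.24) were higher by less. *Klra6* went the other way, with 38.7 and 37.3 CPM in lung and 61.4 and 55.0 CPM in spleen (log2 difference -0.58, SE 0.09, edgeR adjusted p = 7.1e-07). *Klra1*, with 383 and 366 CPM in lung and 368 and 388 CPM in spleen, overlapped between the organs (log2 difference -0.01, 95% interval -0.10 to 0.08). With the GC trend removed, the median of the members was 0.13, *Klra4* and *Klra7* lost their calls (edgeR adjusted p of 0.101 and 0.35) and *Klra1* was called lower in lung (-0.31), as it was with library totals (-0.12). The assumed coefficient of variation of 0.2 left *Klra10* and *Klra13-ps*.

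In KO mice the comparison of the organs gave the other order for most members. Of the 10, 7 were lower and 2 higher in lung, beside 65.6% of all genes tested (33.9% higher and 31.7% lower), with a median log2 difference (lung minus spleen) of -0.36 over the members and 0.02 over all genes. *Klra6* was lower in lung by a log2 difference of -0.68 (SE 0.08, edgeR adjusted p = 1.66e-09), with 40.3 and 39.2 CPM in lung and 66.6 and 62.7 CPM in spleen, so it was lower in lung in both genotypes. *Klra7* (-0.60, edgeR adjusted p = 2.4e-17) and *Klra1* (-0.53, 2.96e-13) were also lower in lung. *Klra9* (0.28, edgeR adjusted p = 1.35e-07) and *Klra3* (0.14, 0.00494) were the members higher in lung, as in *Wt*. *Klra10* was lower in lung by 0.61 on the log2 scale (edgeR adjusted p = 0.00602), a value that was -0.34 without spleen KO replicate 1 and -1.57 without spleen KO replicate 2, and its call was lost without lung KO replicate 2 (-0.57, adjusted p = 0.0547). The call of *Klra3* was lost without lung KO replicate 1 (edgeR adjusted p = 0.0601), without spleen KO replicate 2 (0.151) and in DESeq2 (0.0617), and the GC correction lost those of *Klra8* (0.124) and *Klra10* (0.117) and gave a median of -0.16 over the members. The assumed coefficient of variation of 0.2 left *Klra10* as the 1 member called, at -1.03, though it is below the 57.1% between that gene's spleen KO libraries. The 4 comparisons between groups share their libraries, so their members' values stand side by side and are not independent of each other.

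Read across the 4 groups, the order of the mean levels differed between members. *Klra4*, *Klra5*, *Klra8* and *Klra10* were ordered spleen KO, lung *Wt*, lung KO and spleen *Wt*, from high to low. The libraries of spleen KO and lung *Wt* overlapped for *Klra4* and *Klra10*, and for *Klra5* those of lung *Wt*, lung KO and spleen *Wt* did. *Klra7* had spleen KO and lung *Wt* above spleen *Wt* and lung KO, with no neighbours overlapping. For *Klra13-ps* the order was lung *Wt*, spleen KO, lung KO and spleen *Wt*, the lowest pair overlapping. *Klra9* and *Klra3* were highest in lung *Wt* and next in lung KO, without overlap for *Klra9* and with overlap for *Klra3*. *Klra6* and *Klra1* were highest in spleen KO and next in spleen *Wt*. The mean of the highest group was between 1.18 times (*Klra5*) and 2.83 times (*Klra10*) that of the lowest.

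Shares within the family depend neither on the library total nor on the scaling. *Klra13-ps* made up 23.3% and 23.9% of the Ly49 reads in lung *Wt* and 17.6% and 18.2% in lung KO, against 18.2% and 18.7% for spleen *Wt* and 19.2% and 19.9% for spleen KO. For *Klra9* the lung libraries gave 21.2% and 21.9% (*Wt*) and 20.2% and 19.3% (KO), and the spleen libraries 18.4% and 18.2% (*Wt*) and 13.8% and 13.1% (KO). *Klra7* took the opposite course, from 17.1% and 17.004% in lung *Wt* to 23.2% and 24.1% in spleen KO. The share of *Klra3* was 6.47% and 6.26% in lung KO and between 4.31% and 4.79% in the other 6 libraries. For *Klra1* the shares were 4.89% to 5.004% in the 4 lung libraries, 6.97% and 7.25% in those of spleen *Wt*, and 5.77% and 5.85% with the deletion. *Klra4*, *Klra7*, *Klra8*, *Klra9* and *Klra13-ps* together held 86.6% to 88.9% of the Ly49 reads in every library.

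**Figure D4:**
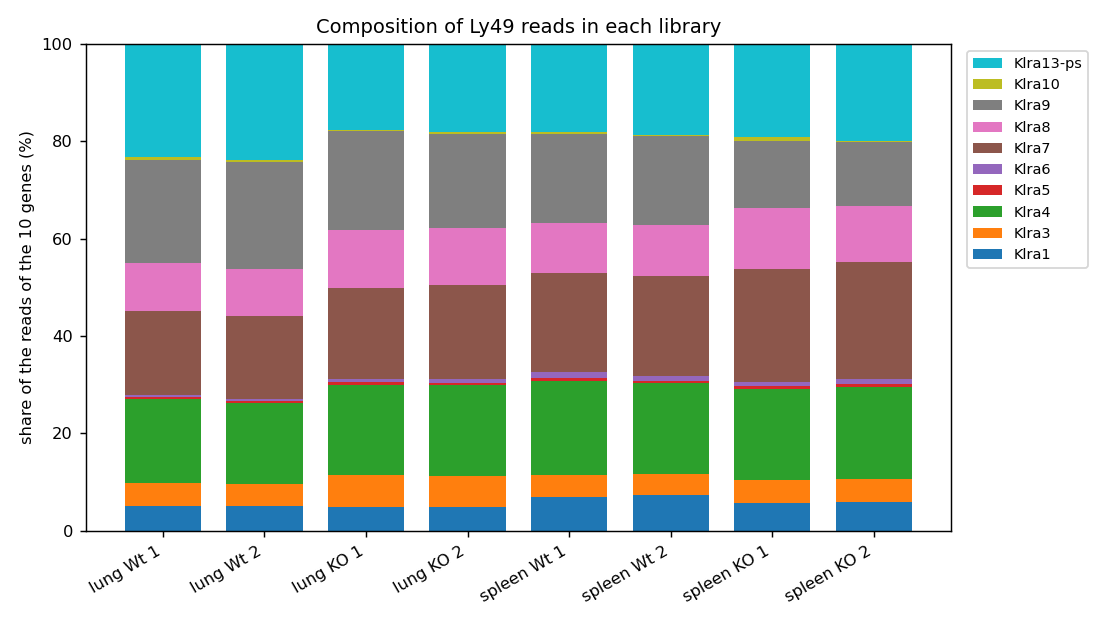
Share of each of the 10 Ly49 genes in the reads counted on the family, as stacked bars from 0 to 100%, for each of the 8 libraries. *Klra9* (grey) narrows to 13.8% and 13.1% in the spleen KO libraries, and *Klra13-ps* (light blue) is widest in the lung *Wt* libraries, at 23.3% and 23.9%.

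Summed over the members, the family was at 7671 and 7310 CPM in lung *Wt* and at 5559 and 5502 CPM in lung KO. The spleen libraries gave 5277 and 5346 CPM for *Wt* and 6900 and 6641 CPM for KO. Lung *Wt* and spleen KO were thus the high groups and lung KO and spleen *Wt* the low ones. The summed level of 10 NK-cell markers, of which *Gzma* and *Nkg7* contribute most, moved with it. It lay at 50680 to 52229 CPM for lung *Wt* and at 40212 to 40568 CPM for lung KO. The spleen values were 36739 to 37325 CPM for *Wt* and 47841 to 50137 CPM for KO. Relative to the marker sum, the Ly49 sum was 14.7% and 14.4% for lung *Wt*, 13.8% and 13.6% for lung KO, 14.1% and 14.6% for spleen *Wt*, and 13.8% and 13.9% for spleen KO. Some markers went the other way, such as *Tbx21* (log2 difference of KO minus *Wt* 1.13 in lung and -1.18 in spleen) and *Prf1* (0.74 in lung and -0.48 in spleen). A list of 7 genes for RNA quality and tissue dissociation, mostly mitochondrial transcripts by level, summed to 10775 to 11512 CPM for lung *Wt*, 7078 to 7179 CPM for lung KO, 5789 to 5793 CPM for spleen *Wt* and 7536 to 7827 CPM for spleen KO. Of its 6 tested genes, 3 were higher and 3 lower in lung KO, among them *Fos* (1.70) and *mt-Cytb* (-0.75), and 3 were higher and 1 lower in spleen KO, among them *mt-Cytb* (0.41) and *Jun* (-1.44). In RNA of sorted populations, fewer cells that carry a receptor and less of its RNA per cell cannot be told apart, and the part of the NK-cell markers and of RNA quality in the Ly49 results was not tested.

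**Figure D5:**
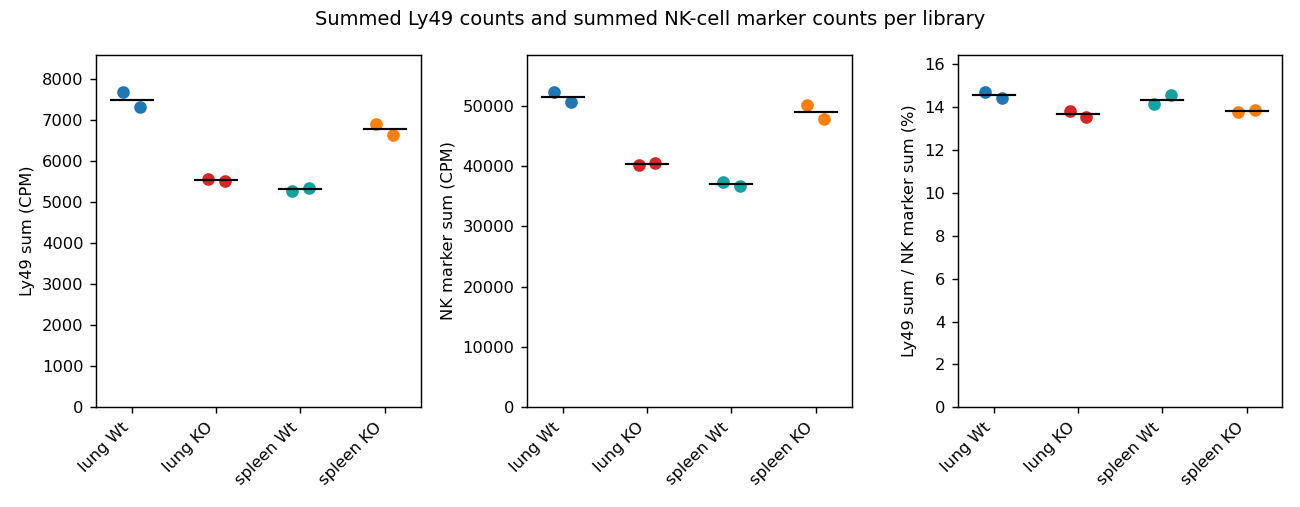
Summed CPM of the 10 Ly49 genes (left), summed CPM of 10 NK-cell markers (middle) and the first as a percentage of the second (right) in each group, with 1 point per library, the mean as a line and axes from 0. Both sums are high in lung *Wt* and spleen KO, while the percentage lies between 13.6% and 14.7% in all libraries.

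The remaining *Klra* symbols were mostly close to the floor. The pseudogene *Klra14-ps*, next to *Klra8*, was the exception, with 239 and 248 CPM in the lung *Wt* libraries and 181 and 178 CPM in the lung KO libraries. The spleen libraries gave 165 and 175 CPM (*Wt*) and 238 and 288 CPM (KO). It fell in lung by 0.44 on the log2 scale (SE 0.06, edgeR adjusted p = 1.09e-07) and rose in spleen by 0.68 (SE 0.06, edgeR adjusted p = 1.22e-12). *Klra17*, the Ly49Q gene, which plasmacytoid dendritic cells and myeloid cells use, was counted at 0 to 26 reads per library, with 26 and 7 reads in lung *Wt* and 4 and 5 in lung KO (log2 difference -1.89, SE 0.51, edgeR adjusted p = 0.00177). *Klra11-ps* had 5 to 64 reads per library and was called in none of the comparisons. *Klra2* (Ly49B) had no read in any library.

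Other genes of the pathway were read as lists, beside the 29.2% of all genes called higher and 26.4% called lower in lung KO, and the 28.2% and 28.9% in spleen KO. Among 19 signalling genes downstream of Ly49 receptors, 8 were higher and 4 lower in lung KO, and 6 were higher and 9 lower in spleen KO. In lung *Plcg2*, a phospholipase, rose by 0.79 on the log2 scale and *Fyn*, a kinase, fell by 0.33, and in spleen *Syk*, which binds phosphorylated DAP12, rose by 0.41 and *Zap70* fell by 0.68. The largest differences called in this list were those of *Plcg1*, with log2 differences of 2.20 in lung and -5.71 in spleen. Its group means, 0.0192 to 3.99 CPM, lay near the floor. The 12 genes of MHC class I ligands and their assembly had 6 members higher and 5 lower in lung KO, and 3 higher and 6 lower in spleen KO. *H2-D1*, a ligand gene, rose by 0.77 in lung and fell by 0.67 in spleen, and *Tap2*, a subunit of the peptide transporter, rose by 1.33 in lung and fell by 1.41 in spleen, each opposite to most Ly49 genes. Other genes of this list had the direction of most Ly49 genes. *Nlrc5* fell by 0.27 in lung and rose by 0.40 in spleen, *H2-Q4* fell by 1.31 in lung and *B2m* rose by 0.32 in spleen. Of 17 transcription factor genes linked to Ly49 or NK-cell gene expression, 6 were higher and 4 lower in lung KO, and 3 were higher and 9 lower in spleen KO. *Ets1* fell by 0.46 in lung, and *Tcf7*, whose product acts in the choice of Ly49 genes, rose by 0.16 in spleen. *Prdm1* fell by 0.86 in lung and rose by 0.55 in spleen. *Tbx21* went the other way, with a rise of 1.13 in lung and a fall of 1.18 in spleen, and *Stat5a* fell by 0.54 in spleen. Of 12 NK-cell maturation markers, 5 were higher and 5 lower in lung KO, and 3 higher and 6 lower in spleen KO. Their medians (0.14, 0.12, 0.02 and 0.07 in lung, and -0.09, -0.09, -0.14 and -0.12 in spleen, in the order given) stand beside those of all genes, 0.02 and 0.00.

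Non-Ly49 genes that flank the cluster in the NK gene complex formed a further list. Of the 18 with counts, 4 were higher and 13 lower in lung KO (median log2 difference -0.32), and 14 were higher and 1 lower in spleen KO (median 0.32). *Clec2d*, whose product is a ligand of the inhibitory receptor NKR-P1B, fell by 1.88 in lung, and *Magohb* fell by 0.45 in lung and rose by 0.98 in spleen. *Clec2i* (0.50) and *Gabarapl1* (0.49) were higher in lung KO. *Styk1* rose in spleen by 0.76, and *Cd69*, an early activation marker, fell there by 0.16. The same shares of all genes stand beside these counts, and the list was not tested against other genes.

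The genes outside the family whose log2 CPM most resembled the mean centred log2 CPM of the members over the 8 libraries were *Sod1* (Pearson r = 0.989), *Bcap31* (0.985), *Gm5436* (0.983), *Gm43727* (0.983) and *Nme1* (0.983). None of them lies on chromosome 6. The libraries fall into 4 groups, and the values describe likeness over these groups, without a test.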

How the data were processed

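Raw read counts per gene symbol of 8 libraries were used as the authors deposited them. Per the labels and the study's methods, reads of 50 bp were aligned to mm10 (GRCm38) with HISAT2 2.1.0 and counted with HTSeq, whose version the submitters' processing notes give as 0.11.1. The annotation and strand setting are not given in the sources used here. HTSeq's rows of uncounted reads were left out of library sizes. Between 44.3% and 46.6% of uniquely aligned reads were counted.

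Counts were fitted in R 4.3.3 with edgeR 4.0.16: filterByExpr over the 4 groups, TMM scaling, 1 mean per group over all 8 libraries, the quasi-likelihood test, and Benjamini-Hochberg adjustment over the 12595 genes tested at an FDR of 0.05. Standard errors and intervals came from the F statistic. With 2 libraries against 2, no exact permutation test can give a p below 0.333. Replicate libraries varied 1.23 to 1.48 times as much as counting alone gives. The floor of 3 reads covers counting error only. Alternatives were DESeq2 1.42.0, an assumed coefficient of variation of 0.2 (edgeR's likelihood ratio test), scaling by RLE, by upper quartiles or by library totals, all genes unfiltered, a minimum of 10 counts per library, fits of the 4 libraries compared, the replicate number as a block, a GC offset (a spline with 5 degrees of freedom, alone and with the block), and leaving out each library.

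Of the symbols, 46394 matched a GENCODE M21 gene name and 577 a synonym, and lengths, positions, GC content and sequences come from that annotation and its transcripts. A count of 50-base positions unique in the genome could not be made without a genome sequence, so positions found in no other annotated gene were used, a choice made after the data were seen. Coding sequences were aligned globally in pairs. The steps were run on counts simulated with a coefficient of variation of 2.5%, the spread estimated between these libraries. Of 200 genes changed 2-fold in lung KO, 93% were recovered, and 4.12% of calls were false. The simulation does not cover a wider spread, such as one between mice. Members and gene lists were chosen with earlier results of these data known. All members, the other *Klra* symbols and *Ccl5* are named, and from each list at most the 2 genes of largest difference in each direction among those called, with *Ncr1*, *Cd8a*, *Gzma*, *Nkg7* and *Prf1* named as markers. Not every gene the rule covers is reported.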

Additional observations from a re-analysis of the deposited data

Results flagged for a closer look

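For 8 Ly49 genes the KO effect was unequal in the organs when the difference itself was tested with edgeR. The log2 effect in lung minus that in spleen was -2.05 for *Klra10*, -1.27 for *Klra13-ps*, -0.84 for *Klra7*, -0.70 for *Klra8*, -0.63 for *Klra4*, -0.51 for *Klra1*, -0.49 for *Klra3* and -0.45 for *Klra9*. These genes are listed because that test was passed, as it was for 61.6% of all genes tested. For *Klra1*, *Klra3* and *Klra9*, the sign turned once the trend with GC content was removed. *Klra10* rests on 53 to 579 reads per library and on spleen KO libraries that differ from each other.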

How the results depend on the processing

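The number of members called stayed within 1.5 times under every alternative but the assumed coefficient of variation of 0.2, which left 2 in lung, 1 in spleen, 2 for the difference of effects, 2 for the organs in *Wt* and 1 in KO, and 1557, 1144, 2017, 2011 and 2316 of all genes. DESeq2 called 4507 genes in lung and 4165 in spleen. Leaving out 1 library gave 6 to 7, 6 to 9, 8 to 9, 8 to 8 and 8 to 9 members, and 5097 to 7350, 4448 to 7493, 6352 to 7946, 5427 to 7617 and 5684 to 8694 genes, in the same order (4448 without spleen KO replicate 2). Equal replicate numbers were not shown to pair libraries (correlations of their deviations from -0.0758 to 0.169 over 5103 genes), and the replicate block alone changed no member's call or sign, with 6977 genes called in lung and 7185 in spleen. Of 940 values of members, 838 kept direction and call, 59 kept direction and lost the call, 7 kept direction and gained one, and 36 changed sign, some of these with a call lost or gained. Signs turned with the GC offset in lung for *Klra3* (0.279), *Klra5* (0.111) and *Klra8* (0.0517), in spleen for *Klra1* (-0.197) and *Klra6* (-0.0544), for the difference of effects for *Klra1* (0.025), *Klra3* (0.058), *Klra5* (0.0371), *Klra6* (0.321) and *Klra9* (0.0693), and between organs for *Klra5* in KO (0.0264) and *Wt* (-0.0107). With GC offset and replicate block they turned in lung for *Klra3* (0.288), *Klra5* (0.149) and *Klra8* (0.0593), in spleen for *Klra1* (-0.197) and *Klra6* (-0.036), for the difference for *Klra1* (0.0271), *Klra3* (0.0614), *Klra5* (0.0455), *Klra6* (0.328) and *Klra9* (0.0728), and for *Klra5* between organs in *Wt* (-0.0612). Library totals turned *Klra3* (0.0715) and *Klra5* (0.0487) in lung, *Klra1* (-0.0221) in spleen and *Klra6* (0.0684) for the difference, and RLE scaling (0.0047) and DESeq2 (0.005) turned *Klra1* between organs in *Wt*. Without 1 library, *Klra3* (-0.0682 to 0.0364) and *Klra5* (-0.0867 to 0.0258) in lung, *Klra6* for the difference (-0.167 to 0.0108), and *Klra1* (-0.049 to 0.0315) and *Klra5* (-0.0771 to 0.227) between organs in *Wt* crossed 0. The cause was not tested. Library totals moved the median of all genes to 0.11 in lung, 0.19 for the difference and -0.12 between organs in *Wt*, and the share of higher genes among those called from 52.5% to 63.3%, 52.9% to 63.5% and 48.6% to 36.9%. The coefficient of 0.2 gave 66.1% in lung, 31.5% (from 49.3%) in spleen, 69.7% for the difference and 65.6% (from 51.7%) between organs in KO. The planned level per position unique in the genome was not run, and the median level over members and groups was 377 CPM per kb of exon and 546 CPM per kb of positions found in no other annotated gene. The calls of *Klra13-ps* in lung, for the difference and between organs in *Wt*, and of *Klra10* in spleen, for the difference and between organs in *Wt*, were kept under every alternative run. For *Klra10* in spleen and for the difference, the coefficient of 0.2 was below the 57.1% between its spleen KO libraries. Leaving out 1 of them removed that spread from the test. Those alternatives were therefore no strict check on its call. *Klra5*, *Klra6* and *Klra10* had the fewest reads of the members and the widest intervals, and for *Klra10* the spleen KO libraries also differed from each other.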
